A study of Nannochloropsis oceanica with 6 samples.

Results

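The ferredoxin gene NO09G00110 of the eustigmatophyte alga Nannochloropsis oceanica is described here across cultures kept at high or low CO2. It is 1 of 10633 genes in the deposited tables, where its best Swiss-Prot match is a cyanobacterial protein named Ferredoxin and its KEGG orthology name is petF. It was selected on its measured fold change between the groups, as a gene far lower in low CO2, so its own difference between the groups is given as a description, with no test. The study asked how transcripts of strain IMET1 differ between high and low CO2. Libraries of poly(A) RNA came from 6 column reactors, 1 each, seeded from the same cells and held at 25 °C under 80 µmol photons m-2 s-1 in a seawater medium of f/2 type that was buffered with 10 mM Tris at pH 8.2 and held 3.65 mg of hydrated iron chloride per litre. All 6 had 1 h of air with 5% CO2, after which 3 stayed on it (high CO2, the control) and 3 received air with 0.04% CO2 (low CO2). Cells were sampled 24 h after that switch, at this time only. Levels are per culture, so less of a transcript per cell and fewer cells that carry it cannot be told apart.

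Ferredoxins are small proteins with an iron-sulfur cluster that carry single electrons. In plastids, ferredoxins of the petF type take electrons from photosystem I and hand them on to ferredoxin-NADP reductase, which makes NADPH for carbon fixation, and to enzymes that reduce nitrite, sulfite, thioredoxin and bilins or that make glutamate. Ferredoxins of the adrenodoxin type work in mitochondria, where they serve iron-sulfur cluster assembly and other steps. Many algae also carry flavodoxin, a flavin protein that can stand in for ferredoxin when iron is short, but 0 genes in these tables were described as flavodoxin.

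The level of NO09G00110 in the high CO2 cultures was 1031, 1063 and 1246 FPKM (read fragments per unit of gene length, scaled to library size) in replicates 1, 2 and 3. In the low CO2 cultures it was 129, 163 and 149 FPKM. The groups thus lay far apart: the highest low CO2 culture was well under the lowest high CO2 culture, and across the 9 pairs of a high and a low CO2 culture the ratio ran from 6.34 to 9.65. The means were 1113 ± 116 and 147 ± 16.9 FPKM (SD, n = 3 per group), a ratio of 7.59. In TPM, which sums to the same total in each library, the means were 1572 ± 107 and 219 ± 30.1, a ratio of 7.17. The log2 fold change (low minus high CO2) fitted by edgeR over all genes was -3.00, with an SE of 0.14, or 7.98-fold higher in high CO2. The authors' deposited table of 217 genes gives -2.99 for the same quantity.

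**Figure D1:**
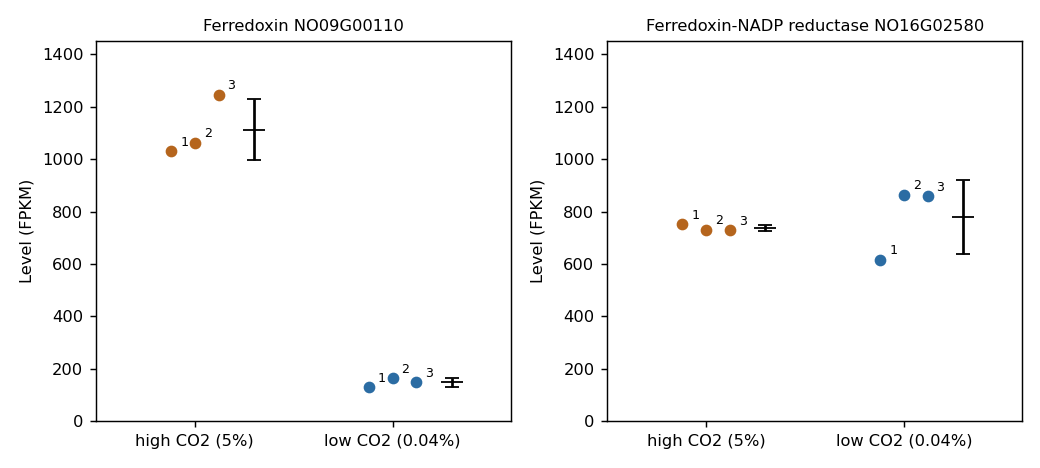
Level in FPKM (vertical axis, from 0) of the ferredoxin NO09G00110 (left) and of ferredoxin-NADP reductase NO16G02580 (right) in each culture, numbered by replicate, with mean ± SD over 3 cultures as black bars. The ferredoxin lies at 1031 to 1246 FPKM in high CO2 and at 129 to 163 FPKM in low CO2, while the reductase lies between 616 and 864 FPKM in all 6 libraries.

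Read numbers behind these levels were large. The gene had 5482, 5596 and 6254 counts in high CO2 replicates 1, 2 and 3, out of library totals of 5140784, 5079605 and 4826380. It had 620, 950 and 946 counts in low CO2 replicates 1, 2 and 3, out of 4620234, 5607726 and 6112822. Its share of all counts was 0.115% ± 0.0124 in high CO2 and 0.0153% ± 0.00177 in low CO2 (SD, n = 3). The exact (Clopper-Pearson) 95% intervals of single libraries, which cover counting error only, ran from 0.104% to 0.133% over the high CO2 libraries and from 0.0124% to 0.0181% over the low CO2 libraries. By TPM it ranked 59, 62 and 61 of 10633 genes in the high CO2 libraries, and 1119, 798 and 871 in the low CO2 libraries. It thus ranked within the first 62 genes in each high CO2 culture and no higher than place 798 in any low CO2 culture.

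The gene has a single transcript model of 1283 bases. Its estimated counts were whole numbers in all 6 libraries (within 0.005), as were those of 8241 genes, with no sign in the values of reads divided between this gene and others. The locus numbered before it, NO09G00100, is an undescribed model of 228 bases with 0 to 5 counts per library. The locus numbered after it, NO09G00120, is described as 5-hydroxyisourate hydrolase, an enzyme of urate breakdown. It was at 67.9 ± 2.53 FPKM in high and 63.2 ± 13.3 FPKM in low CO2 (log2 fold change -0.14, SE 0.20, adjusted p = 0.739, edgeR quasi-likelihood test with Benjamini-Hochberg adjustment), and its groups overlapped. Without low CO2 replicate 1 NO09G00120 was called as lower (-0.41, adjusted p = 0.0377), and without high CO2 replicate 3 as well it stood at -0.37 (adjusted p = 0.00154). NO09G00100 had too few counts to be compared.

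A pair of libraries stood apart from their groups across genes. On log2 CPM, a count scaled by library size, Pearson's r across the 9244 genes (which are not independent replicates) of low CO2 replicate 1 was 0.942 and 0.946 with high CO2 replicates 1 and 2, against 0.923 and 0.932 with low CO2 replicates 2 and 3, which had 0.987 with each other. High CO2 replicate 3 had 0.944 and 0.952 with high CO2 replicates 1 and 2, which had 0.982 with each other. For NO09G00110, low CO2 replicate 1 was 0.08 below the other low CO2 cultures in log2 CPM (a difference of -0.08), and was thus not shifted toward high CO2. High CO2 replicate 3 was 0.34 above the other high CO2 cultures. Without both libraries the log2 fold change was -2.85 (SE 0.07), and in fits that each left out 1 library it ran from -3.07 to -2.87. Both libraries were singled out on these same data, and leaving them out narrows the spread within the groups. Calls and adjusted p-values from fits without them, here and below, are therefore descriptions and not independent tests.

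Among transcripts abundant in high CO2 no other difference was as large. Among the 181 tested genes that averaged 500 FPKM or more in high CO2, NO09G00110 had the lowest log2 fold change. It was selected for its fall, and the cut left out genes abundant in low CO2 alone, so this rank is only a description. The next was NO20G02130, described as heat shock protein 16, at -1.82, and the median of the 181 was -0.27, against 0.01 over all 9244 genes tested. Over all genes tested NO09G00110 had the 13th lowest value, behind less abundant genes. Its spread between cultures was not unusual: the coefficient of variation of FPKM was 10.4% in high and 11.5% in low CO2, where the medians of the 181 genes were 12.7% and 13.1%.

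**Figure D2:**
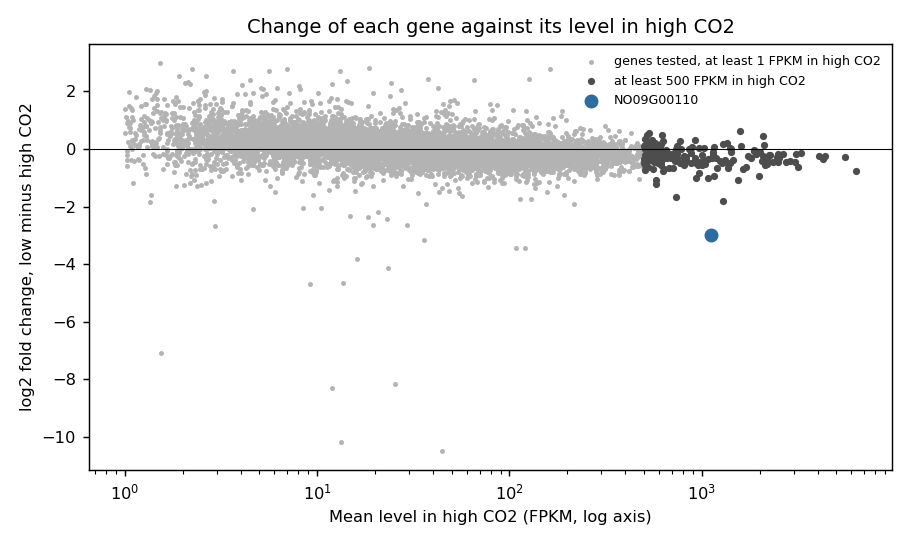
Log2 fold change (low minus high CO2, vertical axis) of each tested gene with at least 1 FPKM in high CO2 against its mean level there (FPKM, log axis). Dark points are the 181 genes with at least 500 FPKM, whose median is -0.27, and the blue point is NO09G00110 at -3.00, below all of them.

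The other carriers of this kind differed far less between the groups. The word patterns took in 8 further genes: 3 with the orthology name petF, 3 of the adrenodoxin or mitochondrial type or described as a plain 2Fe-2S ferredoxin, a gene matched to a bacterial Ferredoxin-1, and a rubredoxin, which holds iron without sulfide. None of the 8 passed the test over all genes, where 2.12% of the 9244 genes tested were called (0.898% lower and 1.22% higher in low CO2). Of the 8, 2 had an unadjusted p below 0.05 and DESeq2 called 0, against 1720 and 588 of the 9244 genes. Their log2 fold changes ran from -0.50 to 0.19, with 6 below 0 and 2 above. The median was -0.32, against 0.01 over all genes tested. In 2 of the 8 the cultures of low CO2 all lay below those of high CO2, which held for 11.8% of all genes tested.

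Of the petF genes, NO05G02350 (Ferredoxin-2) came nearest to NO09G00110 in level. It was at 436, 447 and 622 FPKM in high CO2 replicates 1, 2 and 3, and at 492, 303 and 293 FPKM in low CO2 replicates 1, 2 and 3. Low CO2 replicate 1 thus lay inside the high CO2 range and the groups overlapped (log2 fold change -0.50, SE 0.28, adjusted p = 0.379). NO05G02270, also described as Ferredoxin, was at 182, 205 and 238 FPKM in high CO2 and at 231, 142 and 145 FPKM in low CO2, with the same overlap through replicate 1 (-0.31, SE 0.27, adjusted p = 0.555). NO24G00440, the longest of the petF models at 2296 bases, was low throughout, at 48.9, 52.2 and 49.9 FPKM in high CO2 and at 42.6, 41.9 and 40.6 FPKM in low CO2. Its groups did not overlap, but the difference was small (-0.34, SE 0.12, adjusted p = 0.216).

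Leaving out the libraries that stood apart changed the calls of these genes. Without low CO2 replicate 1, the 3 petF genes fell (adjusted p = 0.0204 for NO05G02350, 0.0362 for NO05G02270 and 0.0392 for NO24G00440), in a fit in which 10.2% of genes were called as lower. Without high CO2 replicate 3 as well, they fell by 0.66, 0.52 and 0.40 on the log2 scale, and 4 of the 8 carriers were called, all lower, where 36.6% of genes were called and 19.4% as lower. NO09G00110 stood at -2.97 and -2.85 in these fits. NO05G02270 and NO05G02350 had fractional counts in all 6 libraries, so part of their reads was assigned by estimate.

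The mitochondrial Ferredoxin-2 match NO03G04660, related to a mammalian protein of iron-sulfur cluster assembly, was at 211, 193 and 235 FPKM in high CO2 and at 166, 172 and 172 FPKM in low CO2. Its groups did not overlap, and it did not pass with all libraries (-0.39, SE 0.13, adjusted p = 0.179). It was called as lower without both libraries that stood apart (adjusted p = 0.00352). The adrenodoxin-like NO03G01380 was at 119 ± 29.1 and 90.5 ± 11.6 FPKM in high and low CO2 (adjusted p = 0.384), and the 2Fe-2S ferredoxin NO12G03710 at 31.3 ± 4.28 and 35.2 ± 3.81 FPKM (adjusted p = 0.806). NO12G01630, the match to a bacterial Ferredoxin-1, was at 19.1 ± 2.07 and 22.8 ± 3.93 FPKM (adjusted p = 0.631), and the rubredoxin NO17G02890 at 154 ± 14.6 and 149 ± 14.0 FPKM (adjusted p = 0.733). In these 4 genes the groups overlapped. A further gene, NO12G00070, is named as a 2Fe-2S ferredoxin only by its match to a Chlamydomonas protein and was added after its values were seen. It was at 124, 115 and 143 FPKM in high CO2 and at 101, 99.2 and 104 FPKM in low CO2, with no overlap (log2 fold change -0.24, adjusted p = 0.396).

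**Figure D3:**
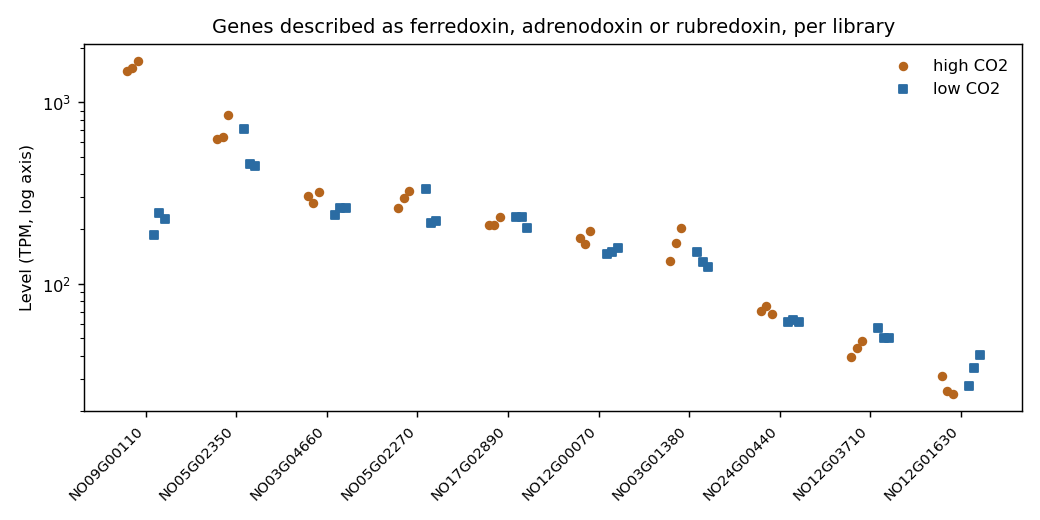
Level in TPM (log axis) of NO09G00110 and of the other genes described as ferredoxin, adrenodoxin or rubredoxin, with 1 point per library (circles high CO2, squares low CO2) and genes ordered by their high CO2 mean. NO09G00110 is the highest in high CO2, at 1489 to 1694 TPM, and lies among the rest in low CO2, at 187 to 246 TPM.

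The order of the carriers by level therefore differed between the conditions. In high CO2, NO09G00110 was first at 1572 ± 107 TPM, followed by NO05G02350 at 707 ± 120 TPM, and their ranges did not overlap. NO03G04660 (301 ± 20.8 TPM) and NO05G02270 (294 ± 30.6 TPM) came next, with overlapping ranges. In low CO2, NO05G02350 was first at 539 ± 150 TPM, above NO05G02270 (257 ± 67.3 TPM) and NO03G04660 (254 ± 12.3 TPM), which overlapped each other. The rubredoxin (222 ± 16.6 TPM) and NO09G00110 (219 ± 30.1 TPM) followed and could not be ordered. By the means NO09G00110 was thus at place 1 of these 10 genes in high CO2 and at place 5 in low CO2. The low CO2 place differed between cultures, since its range of 187 to 246 TPM also overlapped those of NO05G02270 and NO03G04660.

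Its part in the pool of petF transcripts was lower by the same measure. Of the summed TPM of the 4 petF genes it made up 60.7%, 60.2% and 57.8% in high CO2 replicates 1, 2 and 3, and 14.4%, 25.0% and 23.7% in low CO2 replicates 1, 2 and 3. The sum of the 4 genes was 2644 ± 252 TPM in high and 1077 ± 188 TPM in low CO2, and 86.3% of the difference between these means came from NO09G00110. As NO09G00110 was selected for its fall, its lower share and its part in this difference are only descriptions. The other 3 together were at 964, 1016 and 1237 TPM in high CO2 and at 1107, 736 and 729 TPM in low CO2, so that their groups overlapped. Over the 9 carriers of the word list the share of NO09G00110 was 46.3% ± 1.06 in high and 12.6% ± 2.83 in low CO2 (SD, n = 3). A separate reference of 160 genes, not the source of the names used here, also holds a plastid gene with the symbol petF. That gene matched no identifier of the deposited tables and was not analysed here, so these sums cover the genes with locus numbers alone.

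Ferredoxin-NADP reductase (NO16G02580), the enzyme that passes electrons from ferredoxin to NADP, had no comparable difference. It was at 751, 730 and 729 FPKM in high CO2 and at 616, 864 and 859 FPKM in low CO2, where replicate 1 lay below and replicates 2 and 3 above all high CO2 cultures. Its fitted log2 difference was 0.00 (SE 0.12, adjusted p = 0.993). Within each library, the ratio of NO09G00110 to this reductase in TPM, which does not depend on how libraries are scaled to each other, was 1.37, 1.46 and 1.71 in high CO2 and 0.210, 0.188 and 0.173 in low CO2. With the 4 petF genes summed, the ratio was 2.26, 2.42 and 2.96 in high CO2 and 1.45, 0.752 and 0.731 in low CO2. Transcripts of the reductase were thus fewer than those of NO09G00110 in every high CO2 culture and several times more in every low CO2 culture.

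None of the 7 enzymes that the word pattern took in as named for ferredoxin passed (2 with an unadjusted p below 0.05, and DESeq2 called 1), with a median log2 fold change of 0.24. In 3 of the 7 the low CO2 cultures all lay above those of high CO2, and in 1 all lay below. Over all genes tested these shares were 13.6% and 11.8%, and 2.12% were called. Of those 9244 genes, 1720 had an unadjusted p below 0.05 and DESeq2 called 588. Ferredoxin-dependent glutamate synthase (NO10G02290), which makes glutamate in nitrogen assimilation, was at 36.9, 34.2 and 25.4 FPKM in high CO2 and at 40.3, 62.9 and 71.0 FPKM in low CO2. Its groups did not overlap (0.77, SE 0.19, adjusted p = 0.101). Ferredoxin-nitrite reductase (NO26G00710), which makes ammonium from nitrite, was at 381, 392 and 287 FPKM in high CO2 and at 423, 531 and 570 FPKM in low CO2, again without overlap (0.45, SE 0.14, adjusted p = 0.146). Both rose when low CO2 replicate 1 was left out (adjusted p = 0.00786 and 0.0342), in a fit in which 7.02% of genes were called as higher. The catalytic chain of ferredoxin-thioredoxin reductase (NO01G00900), which reduces thioredoxins that switch enzymes of the Calvin cycle, was at 47.2 ± 3.17 and 59.2 ± 6.82 FPKM (0.24, SE 0.11, adjusted p = 0.283).

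The remaining members on that list were the bilin reductases and the mitochondrial partner. NO16G02080, a 15,16-dihydrobiliverdin:ferredoxin oxidoreductase of bilin synthesis, was at 341 ± 25.4 and 438 ± 83.7 FPKM (0.29, SE 0.12, adjusted p = 0.27; called at 0.38 without low CO2 replicate 1), and NO05G03870, a phycoerythrobilin:ferredoxin oxidoreductase, at 62.8 ± 7.93 and 50.5 ± 4.76 FPKM (-0.37, SE 0.18, adjusted p = 0.305). NADPH:adrenodoxin oxidoreductase (NO13G01580), which feeds mitochondrial ferredoxins, was at 15.2 ± 0.812 and 14.6 ± 2.55 FPKM (adjusted p = 0.733). A pair of enzymes with ferredoxin at the end of their names had been missed by the pattern and was added after their values were seen. Sulfite reductase [ferredoxin] (NO16G01010), of sulfur assimilation, was at 392 ± 27.6 and 321 ± 59.2 FPKM (-0.34, SE 0.19, adjusted p = 0.381), and was called as lower without low CO2 replicate 1 (-0.59, adjusted p = 0.016) and without both libraries that stood apart (-0.49). NO11G00330, a 4-hydroxy-3-methylbut-2-en-1-yl diphosphate synthase (ferredoxin) of plastid isoprenoid synthesis, was at 135 ± 9.93 and 181 ± 31.1 FPKM (0.35, SE 0.12, adjusted p = 0.179), and was called as higher in the same fits (0.43 and 0.40).

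Without high CO2 replicate 3 and low CO2 replicate 1, 4 of the 7 enzymes rose and 1 fell, where 17.2% of genes were called as higher and 19.4% as lower. The glutamate synthase was at 0.81 and the nitrite reductase at 0.41 on the log2 scale in that fit, and the reductase NO16G02580 did not pass (0.11, adjusted p = 0.0642). The values of these enzymes in either fit lay between -0.53 and 0.81, against -3.00 and -2.85 for NO09G00110.

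**Figure D4:**
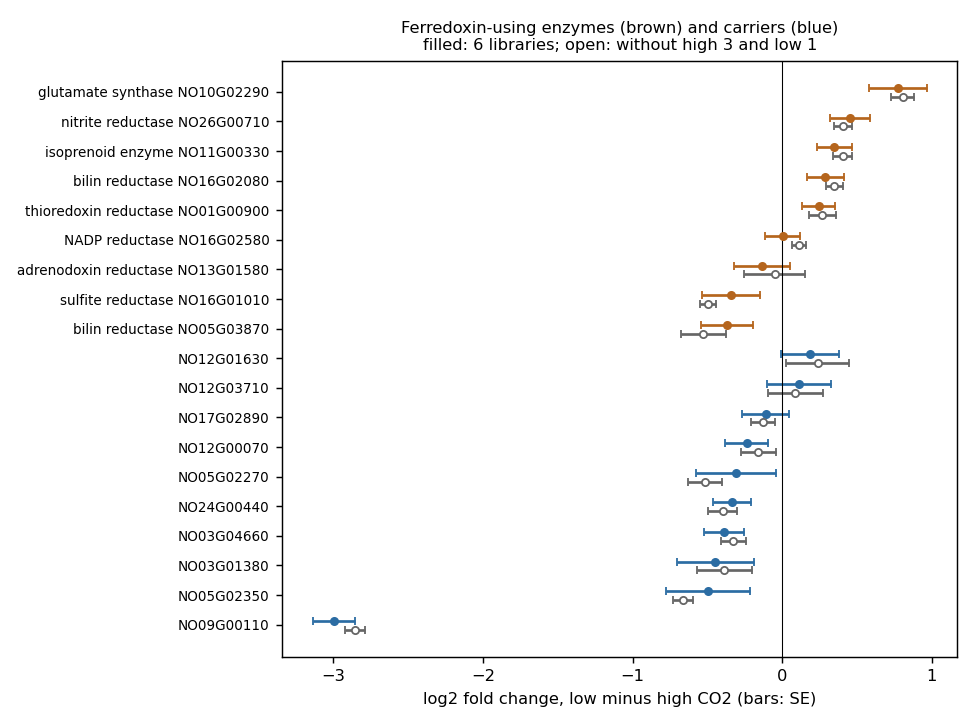
Log2 fold change (low minus high CO2, horizontal axis) with SE bars of 9 enzymes named for ferredoxin or adrenodoxin (brown) and of the carriers (blue), from all 6 libraries (filled) and without high CO2 replicate 3 and low CO2 replicate 1 (open). NO09G00110 lies near -3, and every other gene shown lies between -0.66 and 0.81 in both fits.

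Other genes around ferredoxin were taken from word lists. Together with the 7 named enzymes they came to 72 genes, of which 69 could be tested, 1 rose, none fell and 68 did not pass (12 with an unadjusted p below 0.05; DESeq2 called 3). Over all 9244 genes tested 2.12% were called, 1720 had an unadjusted p below 0.05 and DESeq2 called 588, so the list's share is near that of all genes. The median log2 fold change of the 69 was 0.03, against 0.01 over all genes tested. Without both libraries that stood apart 18 of the 69 rose and 12 fell, shares to be read against 17.2% and 19.4% of all genes. The gene that rose, NO06G01610, is described as thioredoxin domain-containing protein PLP3B, a name given to phosducin-like proteins rather than to a thioredoxin. It was at 40.2, 48.0 and 48.8 FPKM in high CO2 and at 104, 113 and 119 FPKM in low CO2 (1.23, SE 0.14, adjusted p = 0.0101). It did not pass with replicate number as a block, or without any one of high CO2 replicate 1, high CO2 replicate 2 and low CO2 replicate 3.

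By role, none of 10 tested genes on the list of further ferredoxin-using enzymes passed, where 2.12% of all genes tested were called. Of the 10, 1 had an unadjusted p below 0.05 and DESeq2 called 0, against 1720 and 588 of the 9244 genes tested. The list's median was 0.12. Its most abundant member, NO16G01210, described as chlorophyllide a oxygenase, stood at 0.09 (SE 0.13, adjusted p = 0.734), and was called at 0.24 without both libraries that stood apart. NO16G01210 is a model of 591 bases with no KEGG orthology name, so its use of ferredoxin rests on that description alone. By their wording 5 of the 12 genes on that list are NADH-dependent glutamate synthases or folate enzymes that do not use ferredoxin. Photosystem I and its donors were represented by an antenna protein of photosystem I (NO12G02640, -0.03, SE 0.12, adjusted p = 0.908) and by cytochrome c6 (NO05G04730, -0.05, SE 0.26, adjusted p = 0.937), which carries electrons to photosystem I. Of 21 genes with thioredoxin in their description, PLP3B was the only one to pass, the median was -0.04, and the most abundant, Thioredoxin-1 (NO05G01860), was at -0.20 (SE 0.15, adjusted p = 0.498). Without both libraries that stood apart, 2 of the 21 rose and 5 fell, where 17.2% and 19.4% of all genes did.

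None of 16 tested genes of iron-sulfur cluster assembly, the machinery that gives ferredoxin its cluster, passed (4 with an unadjusted p below 0.05, and DESeq2 called 1), and their median was 0.19. For this list and those below, the share called over all genes tested was 2.12%. Of those 9244 genes, 1720 had an unadjusted p below 0.05 and DESeq2 called 588. Without both libraries that stood apart, 7 of the 16 rose and 2 fell, where 17.2% of all genes were called as higher and 19.4% as lower. The most abundant, iron-sulfur cluster assembly protein 1 (NO03G02580), was at 512 ± 50.4 and 557 ± 116 FPKM (0.07, SE 0.21, adjusted p = 0.883). The list of iron uptake and storage held 6 genes, of which 4 are pyruvate dehydrogenase kinases by their wording, and none passed (1 with an unadjusted p below 0.05, and DESeq2 called 0). Both remaining genes are vacuolar iron transporters: NO05G03240 was at 457 ± 22.2 and 386 ± 13.4 FPKM with no overlap (-0.31, SE 0.12, adjusted p = 0.232; called at -0.39 without low CO2 replicate 1), and NO09G03660 stood at -0.18 (SE 0.15, adjusted p = 0.543; called at -0.30 without both libraries that stood apart). Among 7 genes of other electron sinks none passed (0 with an unadjusted p below 0.05, and DESeq2 called 0), and the most abundant, the alternative oxidase match NO02G00290, was at -0.36 (SE 0.22, adjusted p = 0.411). It was called as lower without low CO2 replicate 1 (-0.67, adjusted p = 0.0049) and with both outlying libraries left out (-0.69). In the second of these fits 2 of the 7 sinks rose and 1 fell, where 17.2% and 19.4% of all genes did. By KEGG orthology name NO02G00290 is TARS,thrS, and NO02G02010, NO20G01600 and NO26G00730 of this list are DLD,lpd,pdhD. Those names differ from the descriptions that placed the genes here, so their role as electron sinks is uncertain.

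The authors' annotation places NO09G00110 in the KEGG pathway Photosynthesis with 15 other genes, a list added after the values were seen. Of the 14 that could be tested, a cytochrome b6-f iron-sulfur subunit (NO05G02070) fell (-1.06, SE 0.18, adjusted p = 0.0319) and 13 did not pass, where 0.898% of all genes were called as lower. It did not pass with replicate number as a block, or when any one library other than low CO2 replicate 1 was left out. NO05G02070 averaged 284 FPKM in high and 148 FPKM in low CO2. A more abundant gene of the same description, NO05G02030, averaged 1423 and 1469 FPKM (-0.01, SE 0.15). The less abundant NO05G02050 stood at -0.94 (SE 0.56), and its groups overlapped. These genes had fractional counts in all 6 libraries, so part of their reads was assigned by estimate. Without both libraries that stood apart, 1 of the 14 rose and 6 fell, where 17.2% of all genes were called as higher and 19.4% as lower. The median of the 14 was -0.28, against 0.01 over all genes tested, with 12 of the 14 below 0 and 2 above. It was -0.27 for the 181 genes abundant in high CO2, which were picked for their level there, as the 14 were not. The log2 fold changes of the 14 ran from -1.06 to 0.41. In these 14 genes no value came near that of NO09G00110.

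The genes whose pattern over the 6 libraries was most like that of NO09G00110 were found by the root mean square difference of log2 CPM, each gene centred on its own mean, among 8429 genes averaging 5 FPKM or more. The nearest was NO03G05560, an undescribed gene, with a difference of 0.26, where the median over all candidates was 1.51. It was at 119, 111 and 132 FPKM in high CO2 and at 9.26, 11.1 and 13.9 FPKM in low CO2. Like NO09G00110 it was highest in high CO2 replicate 3 and lowest in low CO2 replicate 1, and it was about as far apart between the groups (log2 fold change -3.44, SE 0.17). The next were the undescribed NO04G05260 (difference 0.50) and NO11G01980 (0.59), and heat shock protein 16 (NO20G02130, 0.60), whose groups were less far apart, with log2 fold changes of -2.20, -1.91 and -1.82. The undescribed models NO08G02610 (0.61) and NO16G02930 (0.67) were at 10.7 to 16.1 and 12.9 to 37.5 FPKM in high CO2, and were listed at 0 in 2 and in all 3 low CO2 libraries. Their fitted log2 fold changes were -4.67 (SE 0.89) and -8.16 (SE 1.11), further from 0 than that of NO09G00110. The prior count in log2 CPM narrows differences at such low counts. These genes were picked for their likeness in the same contrast, so no test is given.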

How the data were processed

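Per the labels, 6 cultures fall into high and low CO2 groups of 3, with groups and replicate numbers from the titles. The submitters' processing notes name edgeR, StringTie, featureCounts, STAR, Picard and Trim Galore, with no version or order in the sources used here; build and annotation are not given in the sources used here. Per the file headers, each library's table deposited by the authors lists TPM, FPKM and the expected count of each gene. The authors also deposited a table of 217 genes with log2 fold changes, p-values and adjusted p-values.

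Expected counts were rounded. Genes passing filterByExpr (9244 of 10633) were scaled by TMM and compared with edgeR 4.0.16's robust quasi-likelihood test in R 4.3.3, with Benjamini-Hochberg adjustment over all genes, a threshold of 0.05 and no replicate block. SE is the log2 fold change over the root of F. The scripts were tested on simulated data. DESeq2 1.42.0 and limma 3.58.1 were alternatives. Levels are FPKM or TPM as deposited; log2 CPM used a prior count of 2.

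The gene, the lists (word patterns on Swiss-Prot descriptions) and the tests were chosen with earlier results of these data known. Named are NO09G00110, all other carriers, called and most abundant list members, the 6 nearest profiles and neighbouring loci; all ferredoxin-named enzymes were added. Of 160 reference genes, 0 matched an identifier, so no position or sequence is shown.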

Additional observations from a re-analysis of the deposited data

How the results depend on the processing

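The log2 fold change of NO09G00110 lay between -3.07 and -2.85 in all fits (main -3.00), and between -3.07 and -2.87 leaving out 1 library at a time; the ratio of mean TPM gave -2.84, a change of scale. Its share of the 9 carriers' TPM differed by -33.7 percentage points (-34.7 to -32.1 leaving out 1 library), by -36.1 in counts, which are not per length, and by -38.5 among petF genes alone, a choice made after seeing the data. Of its 6 nearest profiles, 3 were among the 6 nearest on log2(FPKM + 1) and 2 by Pearson's correlation.

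Calls over all genes were 196 with all libraries, 21 with the replicate block, 588 by DESeq2, 18 to 1610 leaving out 1 library and 3402 without high CO2 replicate 3 and low CO2 replicate 1. Calls among the 8 other carriers were 0, but 3 without low CO2 replicate 1 and 4 without both (0 to 3 leaving out 1 library). Over all genes tested, 17.2% were called without low CO2 replicate 1 and 36.6% without both. The counts of carriers and of the 69 tested genes of the ferredoxin-linked lists are to be read against these shares. Calls in the ferredoxin-linked lists were 1, and 0 with the replicate block, 2 among genes averaging 50 counts or more, 3 by DESeq2, 0 to 16 leaving out 1 library (16 without low CO2 replicate 1) and 30 without both. The cause was not tested. Lists amended by wording gave 0 and 1, as before.

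Signs changed only near 0, with no call. NO16G02580 was at -0.0035 with the replicate block, at -0.12 with a length trend removed, and at -0.046 to 0.091 leaving out 1 library. NO12G02640 was at 0.040 in both limma fits, at 0.090 without both libraries, and at -0.084 to 0.063 leaving out 1. NO03G02580 was at -0.084 without both and at -0.20 to 0.19 leaving out 1, NO05G04730 at 0.024 without both, at 0.082 with a length trend removed and at -0.23 to 0.11 leaving out 1, NO12G03710 at -0.053 to 0.25 and NO17G02890 at -0.24 to 0.0022.

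The replicate numbers were taken as names of separate reactors, since the titles give only a number. Deviations from the group means of same-numbered libraries correlated at -0.36, 0.083 and -0.43. The libraries that stood apart weigh on these values, so they cannot decide whether cultures were paired. The block result thus stands beside the main fit. At these depths low genes such as NO09G00100 cannot be compared.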
